A study of Homo sapiens with 6 samples.

Results

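GPR183, a receptor for oxysterols, and the enzymes CH25H, CYP7B1, HSD3B7 and CYP27A1, which make or degrade its ligand, were followed in lymphoma cells that carried RD2-mutant or wild-type BCL6. They were taken by gene symbol, and all 5 were found among the 23250 genes of the read count table. The samples were OCI-LY1 cells, an established human line of a large B cell lymphoma (DLBCL), in which siRNA depleted BCL6 and an introduced BCL6 was then expressed. In the RD2-mutant rescue (3 libraries) the introduced BCL6 carried a mutated RD2, a repression domain of this transcriptional repressor of germinal centre B cells, and in the wild-type rescue (3 libraries) it was intact. Both groups thus carried the siRNA and an introduced BCL6, and no library without a rescue was analysed here. The labels do not say whether the libraries of a group came from separate cultures, so p-values cover only how far these libraries vary, possibly for technical reasons.

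GPR183 is a G protein-coupled receptor that draws activated B cells towards the outer follicle, and B cells that enter a germinal centre normally lower it. Its strongest known ligand is cholesterol with added hydroxyl groups on the side chain and on the sterol ring. CH25H adds the side-chain hydroxyl, CYP7B1 adds the ring hydroxyl, and HSD3B7 oxidises the ring and so ends the activity of the ligand. CYP27A1 hydroxylates another position of the side chain, which gives the precursor of a related ligand. In lymphoid tissue CH25H and CYP7B1 are known from stromal cells, and the balance with HSD3B7 sets where ligand gradients form.

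Total counts per library were 26298456 to 26966183 in the mutant rescue and 26477404 to 27574867 in the wild-type rescue. Levels are given in CPM, that is counts scaled to a common library size with TMM factors, and a floor of 3 counts in a library corresponded to 0.109 to 0.115 CPM, which covers counting error only. Of 6 B cell markers, 6 were tested, of which 4 were higher and 2 lower. Those that fell were CD22, at 371 CPM in the mutant rescue and 513 CPM in the wild-type rescue, and MS4A1 (CD20), at 107 CPM in the mutant rescue and 583 CPM in the wild-type rescue, while CD79A stood at 650 CPM in the mutant rescue and 614 CPM in the wild-type rescue. The T cell markers CD3E and CD2 had 0 counts in every library. BCL6, the depleted and reintroduced gene, had 14166, 13726 and 13827 counts in the mutant rescue and 19069, 16998 and 18789 in the wild-type rescue, in which endogenous and introduced transcript are counted together. Of 12406 genes tested, 8702 (70.1%) passed an adjusted p of 0.05 (edgeR quasi-likelihood test, Benjamini-Hochberg adjustment over all tested genes). A change in either direction was therefore the common state of a gene in this comparison, with 35.4% of tested genes higher and 34.8% lower in the mutant rescue.

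The receptor was abundant in all libraries and lower with the RD2 mutant. GPR183 stood at 177, 193 and 181 CPM in the mutant rescue, from 4755, 5170 and 4825 counts. In the wild-type rescue it stood at 261, 279 and 263 CPM, from 7145, 7282 and 7177 counts. The highest mutant rescue library lay well under the lowest wild-type rescue library, and the groups did not overlap, as was the case for 72.4% of tested genes. GPR183 averaged 184 ± 7.86 CPM in the mutant rescue and 268 ± 9.78 CPM in the wild-type rescue (SD, n = 3 each), so it fell 1.46-fold (log2 fold change -0.54, SE 0.037, 95% interval -0.61 to -0.47; edgeR quasi-likelihood test, adjusted p = 3.33e-11). Against a minimum change of 1.2-fold it also passed (edgeR glmTreat, adjusted p = 1.39e-07), as did 37.0% of tested genes. In absolute log2 fold change 25.3% of tested genes moved further than GPR183, and in mean CPM 7.81% of tested genes stood above it. BCL6 transcript was itself 1.31-fold lower in the mutant rescue (log2 fold change -0.38; edgeR, adjusted p = 7.90e-10), and its part in the fall of GPR183 was not tested.

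**Figure D1:**
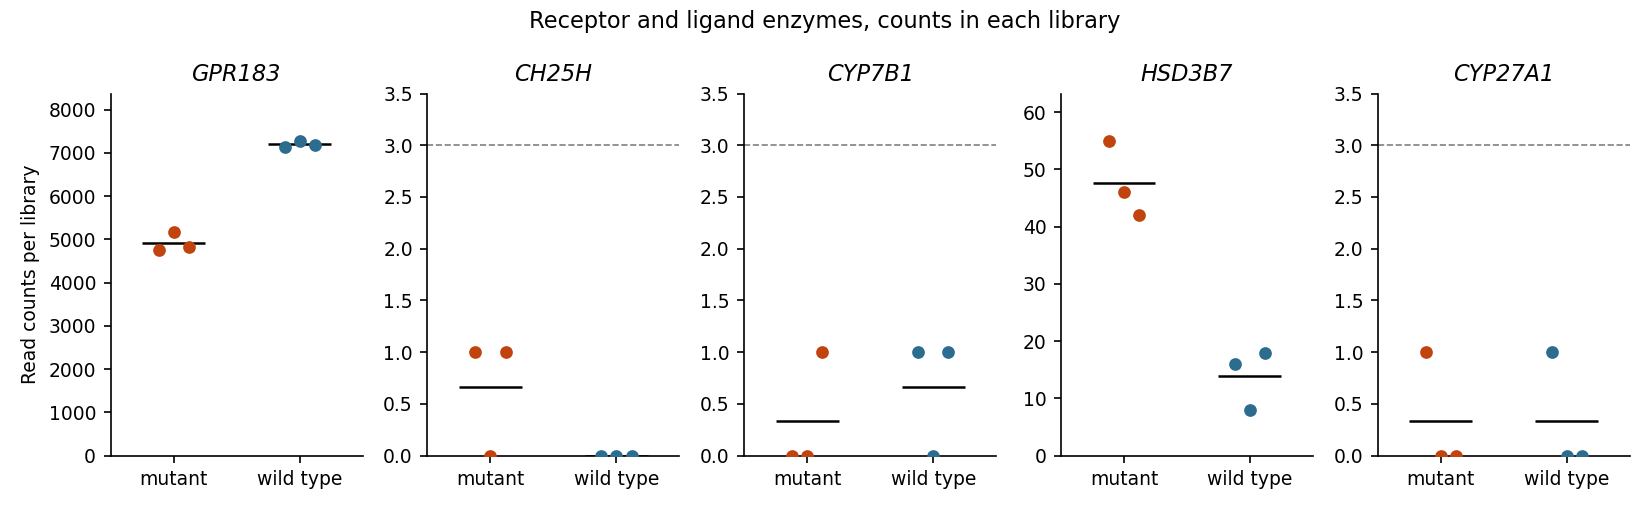
Read counts of the receptor gene GPR183 and the 4 enzyme genes in each library, on linear axes from 0, with 3 mutant rescue libraries left and 3 wild-type rescue libraries right in each panel. Bars mark means. The dashed line, drawn only for CH25H, CYP7B1 and CYP27A1, marks the floor of 3 counts. Only GPR183 (lower in the mutant rescue) and HSD3B7 (higher in the mutant rescue) exceed this floor.

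The enzymes that make the ligand were at the limit of detection in both rescues. CH25H had 1, 0 and 1 counts in the mutant rescue and 0, 0 and 0 in the wild-type rescue. CYP7B1 had 0, 0 and 1 counts in the mutant rescue and 1, 0 and 1 in the wild-type rescue. CYP27A1 had 1, 0 and 0 counts in the mutant rescue and 1, 0 and 0 in the wild-type rescue. No library of either group held more than 1 count of any of these transcripts, all under the floor of 3 counts, so no fold change can be given and a difference was not detectable at this depth. Each was left out by the filter on low counts, which 2 of the 5 genes passed. In a fit without that filter the adjusted p was 0.27 for CH25H, 0.714 for CYP7B1 and 1 for CYP27A1 (edgeR quasi-likelihood test, 17426 genes).

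HSD3B7, the enzyme that ends the ligand's activity, was scarce but detected in every library, and it was higher with the RD2 mutant. It had 55, 46 and 42 counts in the mutant rescue and 16, 8 and 18 in the wild-type rescue. Scaled to library size this was 2.05, 1.71 and 1.58 CPM in the mutant rescue and 0.584, 0.306 and 0.660 CPM in the wild-type rescue. Every mutant rescue library lay above every wild-type rescue library, and the groups likewise did not overlap for 72.4% of tested genes. HSD3B7 averaged 1.78 ± 0.245 CPM in the mutant rescue and 0.517 ± 0.186 CPM in the wild-type rescue (SD, n = 3 each), a 3.41-fold increase (log2 fold change 1.77, SE 0.25, 95% interval 1.28 to 2.26; edgeR, adjusted p = 2.32e-06). A larger absolute log2 fold change was seen in 3.10% of tested genes, and 90.1% of tested genes had a higher mean CPM. HSD3B7 passed the filter on low counts through the mutant rescue, and its counts in the wild-type libraries alone would not have passed. Without wild-type rescue replicate 2, which had the 8 counts, the log2 fold change was 1.52 (edgeR, adjusted p = 3.90e-05).

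CH25H and CYP27A1 are also known from macrophages. Of 7 macrophage markers, 2 were tested and 1 was higher, and the 7 summed to 231 to 248 counts in the mutant rescue and 154 to 201 in the wild-type rescue. Most of that sum was MSR1, with 138, 153 and 142 counts in the mutant rescue and 132, 104 and 132 in the wild-type rescue, which did not pass (edgeR, adjusted p = 0.0581). CD14 had 14, 8 and 4 counts in the mutant rescue and 4, 3 and 0 in the wild-type rescue, and LYZ had 3, 1 and 6 in the mutant rescue and 0, 0 and 0 in the wild-type rescue. The lowest mutant rescue and highest wild-type rescue libraries of CD14 both held 4 counts. They parted only by scaling, at 0.150 and 0.146 CPM. LYZ did not overlap between the groups, though its lowest mutant rescue library held 1 count, under the floor. Groups did not overlap for 72.4% of tested genes, and the counts of CD14 and LYZ were too low for either to pass the filter. MARCO and CD163 had 0 counts in all libraries, and CSF1R had at most 2. CD68, the marker that passed, is also made by other cells and stood at 3.04 CPM in the mutant rescue and 2.03 CPM in the wild-type rescue. Of 6 stromal markers none was tested, and they summed to 5 to 10 counts in the mutant rescue and 3 to 10 in the wild-type rescue. The part of these transcripts in the values of HSD3B7 was not tested.

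**Figure D2:**
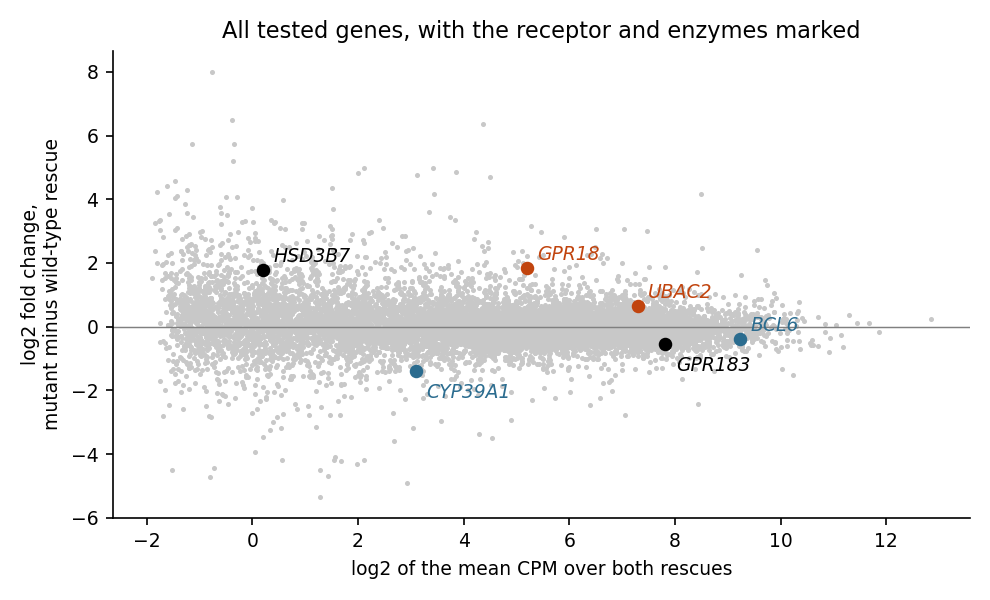
Log2 fold change (mutant minus wild-type rescue) of all 12406 tested genes against the log2 of their mean CPM, each point being a gene. GPR183 (-0.54) lies at the abundant end below 0 and HSD3B7 (1.77) at the scarce end above 0, with BCL6, the neighbours UBAC2 and GPR18, and the sterol hydroxylase gene CYP39A1 also marked.

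The 250 bases before the RefSeq start of GPR183 and of HSD3B7 are shown because these are the members whose transcripts differed, in opposite directions, between forms of a DNA-binding repressor. RefSeq promoters were matched for 4 of the 5 genes, and no sequence of CYP7B1 is shown. Sequences run 5′ to 3′ on the gene's strand in GRCh38.p14, at chr13:99307400-99307649 (minus strand) for GPR183 and chr16:30984957-30985206 (plus strand) for HSD3B7. Capitals mark a match to TTCNNNGAA, the core shared by BCL6 and STAT sites.
GPR183: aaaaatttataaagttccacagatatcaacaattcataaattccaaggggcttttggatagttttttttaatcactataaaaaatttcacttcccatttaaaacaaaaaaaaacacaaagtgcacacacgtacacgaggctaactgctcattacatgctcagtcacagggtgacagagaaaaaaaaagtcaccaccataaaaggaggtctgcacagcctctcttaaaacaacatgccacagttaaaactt
HSD3B7: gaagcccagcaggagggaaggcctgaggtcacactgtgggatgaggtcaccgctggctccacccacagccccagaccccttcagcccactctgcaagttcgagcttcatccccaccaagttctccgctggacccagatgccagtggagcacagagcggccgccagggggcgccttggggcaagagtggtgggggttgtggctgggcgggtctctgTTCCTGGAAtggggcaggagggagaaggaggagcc
Both strands were searched for TTCNNNGAA, for the narrower forms TTCCTNGAA and TTCCTAGAA that lie within it, and for the sterol response element TCACNCCAC. HSD3B7 held TTCCTGGAA, which starts at position -35 from the start site and matches TTCNNNGAA and TTCCTNGAA. GPR183 held none of these letters in this window. Among 27305 promoters of the same length TTCNNNGAA was found in 6.78%, TTCCTNGAA in 1.40%, TTCCTAGAA in 0.341% and the sterol response element in 0.875%. G and C made up 34.4% of the GPR183 sequence and 65.6% of the HSD3B7 sequence, against a median of 58.0% over these promoters. A match is a run of letters and not evidence of binding, and no binding was measured here.

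Of the protein-coding genes around GPR183, UBAC2 and GPR18 rose with the RD2 mutant and TM9SF2 fell slightly. In GENCODE v29, GPR183 lies on the minus strand of chromosome 13 inside the span of UBAC2, a gene of the plus strand, and shares 0 exon bases with it. GPR18, another G protein-coupled receptor, is the nearest protein-coding neighbour and lies inside the same span, also on the minus strand. GPR18 stood at 58.8, 58.8 and 54.8 CPM in the mutant rescue and 16.0, 16.6 and 16.0 CPM in the wild-type rescue. It was thus 3.55-fold higher with the RD2 mutant (log2 fold change 1.83, SE 0.052; edgeR, adjusted p = 1.94e-17). Its groups did not overlap, as was the case for 72.4% of tested genes. UBAC2, a ubiquitin-associated membrane protein gene, averaged 192 ± 1.41 CPM in the mutant rescue and 122 ± 3.08 CPM in the wild-type rescue, and rose 1.57-fold (log2 fold change 0.65; edgeR, adjusted p = 3.01e-13). TM9SF2, the protein-coding neighbour on the other side, fell slightly (log2 fold change -0.21; edgeR, adjusted p = 1.59e-05).

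Counts of GPR183 per count of GPR18 were 3.02, 3.28 and 3.31 in the mutant rescue and 16.2, 16.8 and 16.5 in the wild-type rescue. Per count of UBAC2 they were 0.925, 1.01 and 0.939 in the mutant rescue and 2.14, 2.33 and 2.10 in the wild-type rescue. Neither ratio depends on library scaling, and in neither did the groups overlap. An exact permutation test of each ratio gave a two-sided p = 0.1, the smallest that 3 libraries against 3 allow. Groups that do not overlap always give this value, so the test adds nothing to that separation. GPR18 and UBAC2 themselves rose 3.55-fold and 1.57-fold, so neither ratio follows GPR183 alone. The strand setting of the counting is not given in the sources used here, so reads of unspliced UBAC2 transcript over GPR183 or GPR18 cannot be told apart from reads of those genes. UBAC2 and GPR183 moved in opposite directions, and UBAC2 and GPR18 in the same direction.

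**Figure D3:**
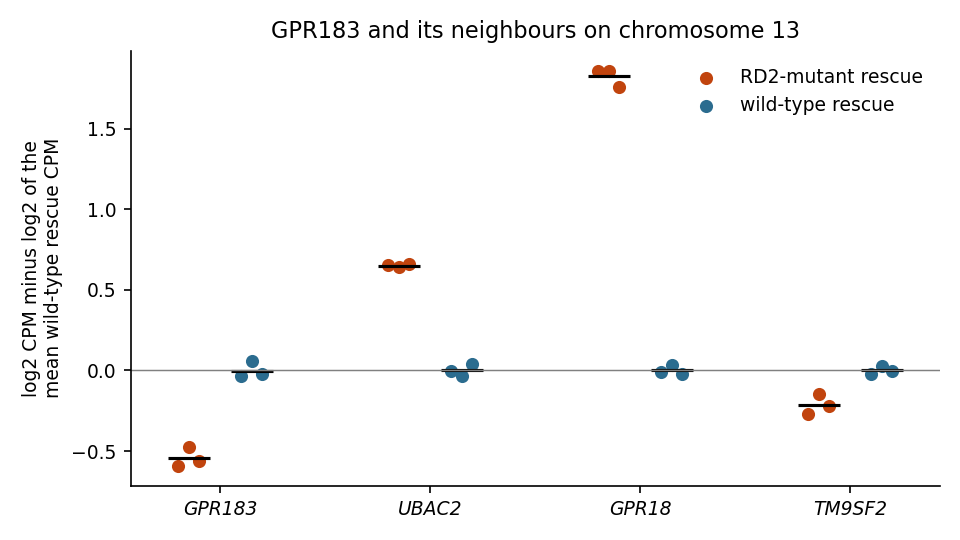
Log2 CPM of GPR183 and its chromosome 13 neighbours UBAC2, GPR18 and TM9SF2 in each library, minus the log2 of the gene's mean in the wild-type rescue. Points are libraries (3 mutant rescue left, 3 wild-type rescue right) and bars are means; GPR183 and TM9SF2 fall below 0 in the mutant rescue while UBAC2 and GPR18 lie above it.

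Near HSD3B7, the methyltransferase gene SETD1A differed by 0.09 on the log2 scale (edgeR, adjusted p = 0.0379), with overlapping groups, and this call was lost with RLE scaling (adjusted p = 0.0554) and with DESeq2 (adjusted p = 0.102). Next to CH25H lie FAS, the death receptor gene, which did not pass (log2 fold change -0.15; edgeR, adjusted p = 0.207), and LIPA, the lysosomal acid lipase gene, which fell. CH25H thus had almost no counts beside a detected neighbour, since LIPA had 633 to 694 counts in the mutant rescue and 1110 to 1144 in the wild-type rescue.

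The tested genes whose pattern over the 6 libraries was closest to that of GPR183 were C6orf89, CCT4, PNO1, TGS1 and DLAT. Likeness was the distance between log2 CPM values centred on each gene's mean, and it ran from 0.0351 for C6orf89 to 0.05 for DLAT. CCT4, a subunit of the cytosolic chaperonin, averaged 324 ± 13.5 CPM in the mutant rescue and 477 ± 10.8 CPM in the wild-type rescue. DLAT, a subunit of pyruvate dehydrogenase, averaged 272 ± 8.82 CPM in the mutant rescue and 394 ± 7.13 CPM in the wild-type rescue. Closest to HSD3B7 were COL8A2, PODNL1 and ACTN1, at distances of 0.274, 0.328 and 0.351. ACTN1, an actin cross-linking protein gene, averaged 2.13 ± 0.168 CPM in the mutant rescue and 0.554 ± 0.181 CPM in the wild-type rescue. COL8A2 and PODNL1 were scarce as well, at 0.598 and 0.922 CPM in the mutant rescue and 0.172 and 0.234 CPM in the wild-type rescue. HSD3B7 passed the filter on low counts only through the mutant rescue. Likeness among genes this scarce in the wild-type rescue is therefore partly set by that filter.

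Other enzymes that turn over oxysterols and bile acid precursors were lower or did not pass. Of 22 listed, 10 were tested, with a median log2 fold change of -0.51 against 0.01 over all tested genes. Of those 10, 0 were higher, 7 were lower and 3 did not pass, against 35.4% higher and 34.8% lower over all tested genes. The count of higher genes was also 0 at an unadjusted p under 0.05 and with DESeq2 and limma-voom. One of the 7, SLC27A2, chosen after its values were seen, had 3, 1 and 6 counts in the mutant rescue. In the wild-type rescue it had 13, 12 and 16. SLC27A2 passed the filter on low counts only through the wild-type rescue, so its place among the lower genes is partly set by that filter. With a minimum of 1 CPM in every library 0 were higher and 6 lower. CYP39A1, a ring hydroxylase that acts on an oxysterol, had 141, 128 and 112 counts in the mutant rescue and 329, 328 and 346 in the wild-type rescue. It averaged 4.75 ± 0.528 CPM in the mutant rescue and 12.4 ± 0.365 CPM in the wild-type rescue (SD, n = 3 each). It was 2.61-fold lower with the RD2 mutant (log2 fold change -1.39, SE 0.093; edgeR, adjusted p = 3.10e-11). Its groups did not overlap, as was the case for 72.4% of tested genes. CYP39A1 was thus the detected ring hydroxylase of this set, while CYP7A1, the liver enzyme that opens bile acid synthesis, had at most 1 count in a library. POR, the reductase that feeds electrons to microsomal cytochromes P450, averaged 53.3 ± 2.49 CPM in the mutant rescue and 81.6 ± 1.29 CPM in the wild-type rescue and fell (log2 fold change -0.61; edgeR, adjusted p = 4.25e-11). The peroxisomal enzyme genes HSD17B4 and ACOT8 fell by 0.54 and 0.34 on the log2 scale, though ACOT8 did not pass when a change of at least 1.2-fold was required (edgeR glmTreat, adjusted p = 0.107). CYP8B1, CYP11A1, HSD11B1, AKR1D1, AKR1C4 and ACOX2 had 0 counts in every library.

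Oxysterols also bind liver X receptors, nuclear receptors that switch on sterol export and fatty acid synthesis. Of 19 genes listed for these receptors and their targets, 12 were tested (median log2 fold change -0.13). Of those 12, 0 were higher, 5 were lower and 7 did not pass, against 35.4% higher and 34.8% lower over all tested genes. With DESeq2 0 were higher and 4 lower, with limma-voom 0 were higher and 5 lower, and 0 were higher at an unadjusted p under 0.05, while 1 was higher with library size scaling and without mutant rescue replicate 2 or 3. Of the 5 that fell, 3 act in or regulate fatty acid synthesis. FASN, the fatty acid synthase gene, was at 172 ± 10.6 CPM in the mutant rescue and 368 ± 7.44 CPM in the wild-type rescue, while the desaturase gene SCD was at 226 ± 14.0 CPM in the mutant rescue and 447 ± 2.06 CPM in the wild-type rescue. SREBF1, the regulator of these genes, and LPCAT3, a phospholipid remodelling enzyme gene, fell by 0.94 and 0.64 on the log2 scale. The other gene that fell was the sterol exporter gene ABCG1, chosen after its value was seen (log2 fold change -0.58; edgeR, adjusted p = 0.0132). Its groups overlapped, and the call was lost with DESeq2 (adjusted p = 0.0515), against a minimum change of 1.2-fold (adjusted p = 0.0606) and without mutant rescue replicate 3 (adjusted p = 0.0624) or wild-type rescue replicate 3 (adjusted p = 0.0897). The cholesterol exporter gene ABCA1 and the receptor genes NR1H3 and NR1H2, chosen after their values were seen, did not pass. NR1H2 passed with library size scaling (adjusted p = 0.0470), and without mutant rescue replicate 2 NR1H2 and ABCA1 passed (adjusted p = 0.0160 and 0.0404). ABCA1 averaged 102 CPM in the mutant rescue and 106 CPM in the wild-type rescue (edgeR, adjusted p = 0.156), and NR1H3 averaged 9.04 CPM in the mutant rescue and 10.0 CPM in the wild-type rescue (edgeR, adjusted p = 0.117).

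Genes that sense sterols through SREBP2, a factor that oxysterols hold inactive through INSIG proteins, moved in both directions. Of 12 listed, 11 were tested (median log2 fold change -0.15). Of those 11, 3 were higher and 8 lower, against 35.4% higher and 34.8% lower over all tested genes. When a change of at least 1.2-fold was required, 2 were higher and 4 lower (edgeR glmTreat), against 37.0% of all tested genes in either direction. SREBF2, which encodes this factor, averaged 405 ± 7.50 CPM in the mutant rescue and 572 ± 9.35 CPM in the wild-type rescue (log2 fold change -0.50; edgeR, adjusted p = 4.84e-12). INSIG1 and INSIG2, chosen after their values were seen, had log2 fold changes of -0.14 and 0.44 (edgeR, adjusted p = 0.00112 and 2.95e-06).

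Oxysterol-binding proteins, which carry sterols and lipids between membranes, moved in both directions. Of 12 listed, 10 were tested, of which 4 were higher, 4 lower and 2 did not pass (median log2 fold change 0.06), close to the shares of 35.4% higher and 34.8% lower over all tested genes. OSBPL2 rose 1.45-fold, at 46.3 ± 1.19 CPM in the mutant rescue and 31.9 ± 0.63 CPM in the wild-type rescue (edgeR, adjusted p = 1.56e-09). OSBP, the founding member, fell by 0.20 on the log2 scale, and OSBPL3 and OSBPL11 rose by 0.12 and 0.17. When a change of at least 1.2-fold was required, 1 of the listed genes was higher and 0 were lower (edgeR glmTreat), against 37.0% of all tested genes in either direction.

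Of 8 genes for sterol esters and lysosomal sterol export, 2 were higher, 3 were lower and 3 did not pass (median log2 fold change -0.08). These counts were close to the shares of 35.4% higher and 34.8% lower over all tested genes. SOAT2, which esterifies cholesterol, fell 2.98-fold, at 1.93 ± 0.247 CPM in the mutant rescue and 5.76 ± 0.668 CPM in the wild-type rescue (edgeR, adjusted p = 2.67e-09). LIPA, the acid lipase that frees cholesterol in lysosomes and the neighbour of CH25H, fell 1.69-fold, at 24.8 ± 1.23 CPM in the mutant rescue and 41.8 ± 1.2 CPM in the wild-type rescue. LCAT and STARD3 rose by 0.47 and 0.15 on the log2 scale, but the call of STARD3 was lost without mutant rescue replicate 3 (adjusted p = 0.0618) and without wild-type rescue replicate 1 (adjusted p = 0.0539).

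**Figure D4:**
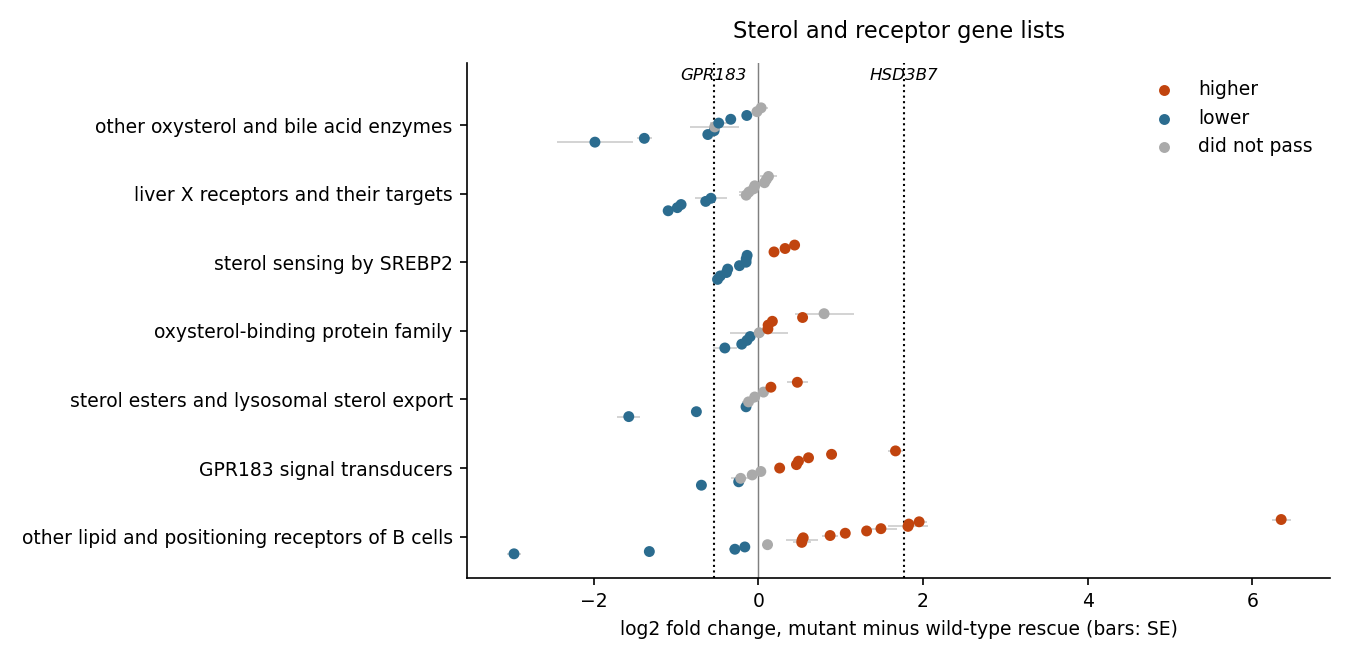
Log2 fold change (mutant minus wild-type rescue) of every tested gene on the 7 lists of sterol and receptor genes, with bars for the SE. Red points were higher, blue points lower and grey points did not pass; dotted lines mark GPR183 (-0.54) and HSD3B7 (1.77).

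GPR183 signals through inhibitory G proteins and is switched off by receptor kinases and arrestins. Of 15 genes listed for this machinery, 11 were tested (median log2 fold change 0.26). Of those 11, 6 were higher, 2 were lower and 3 did not pass, against 35.4% higher and 34.8% lower over all tested genes. GNAI2, the most abundant inhibitory alpha subunit gene of the list, chosen after its values were seen, had 330 CPM in the mutant rescue and 324 CPM in the wild-type rescue and did not pass (edgeR, adjusted p = 0.386). GNG2, a gamma subunit gene, stood at 18.7, 22.5 and 20.9 CPM in the mutant rescue and 6.46, 7.08 and 6.05 CPM in the wild-type rescue. It rose 3.17-fold (edgeR, adjusted p = 3.90e-13), the largest increase of the list. The arrestin gene ARRB2 averaged 129 ± 1.32 CPM in the mutant rescue and 84.8 ± 1.94 CPM in the wild-type rescue and rose 1.52-fold (edgeR, adjusted p = 2.29e-12). The receptor kinase gene ADRBK1 and the beta subunit gene GNB1 rose 1.40-fold and 1.38-fold. A related kinase gene, ADRBK2, chosen after its values were seen, fell by 0.69 on the log2 scale, so the receptor kinases did not share a direction. Receptor protein and signalling were not measured.

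Among other lipid and positioning receptors of B cells, 16 of 21 were tested (median log2 fold change 0.71). Of those 16, 11 were higher, 4 were lower and 1 did not pass, against 35.4% higher and 34.8% lower over all tested genes. GPR183 was thus on the side of the smaller number, with CXCR5, PTAFR, CNR2 and LPAR2. Of the receptors with the smallest p, CXCR4 had a log2 fold change of 1.31, S1PR1 of 6.35, GPR18 of 1.83 and CXCR5 of -1.33. When a change of at least 1.2-fold was required, 10 of the listed receptors were higher and 2 lower (edgeR glmTreat), against 37.0% of all tested genes in either direction.

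Levels between receptors were compared as CPM per kilobase of the longest coding transcript in GENCODE v29. On this scale GPR183 averaged 108 ± 4.62 in the mutant rescue and 157 ± 5.76 in the wild-type rescue (SD, n = 3 each). CXCR4 was the one tested receptor of the list above it, at 642 ± 14.7 in the mutant rescue and 258 ± 4.88 in the wild-type rescue. The next receptor below GPR183 was CNR1 in the mutant rescue, at 48.3 ± 1.00, and CXCR5 in the wild-type rescue, at 34.1 ± 0.771, and the library values of neither reached those of GPR183. The place of GPR183 as the second receptor of this list was therefore the same in both rescues on this scale. Its distance to the next was narrower in the mutant rescue. This order depends on the division by length, and the transcript in use was not determined. In plain CPM, CNR1 lay above GPR183 in the mutant rescue, at 291 against 184. In the wild-type rescue CNR1 lay below GPR183, at 140 against 268 CPM. HSD3B7 had 0.810 ± 0.111 CPM per kilobase in the mutant rescue and 0.235 ± 0.0847 in the wild-type rescue. CYP39A1 had 2.09 ± 0.232 in the mutant rescue and 5.47 ± 0.161 in the wild-type rescue on the same scale. In the mutant rescue the lowest CYP39A1 library, at 1.86, still lay above the highest HSD3B7 library, at 0.933.

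**Figure D5:**
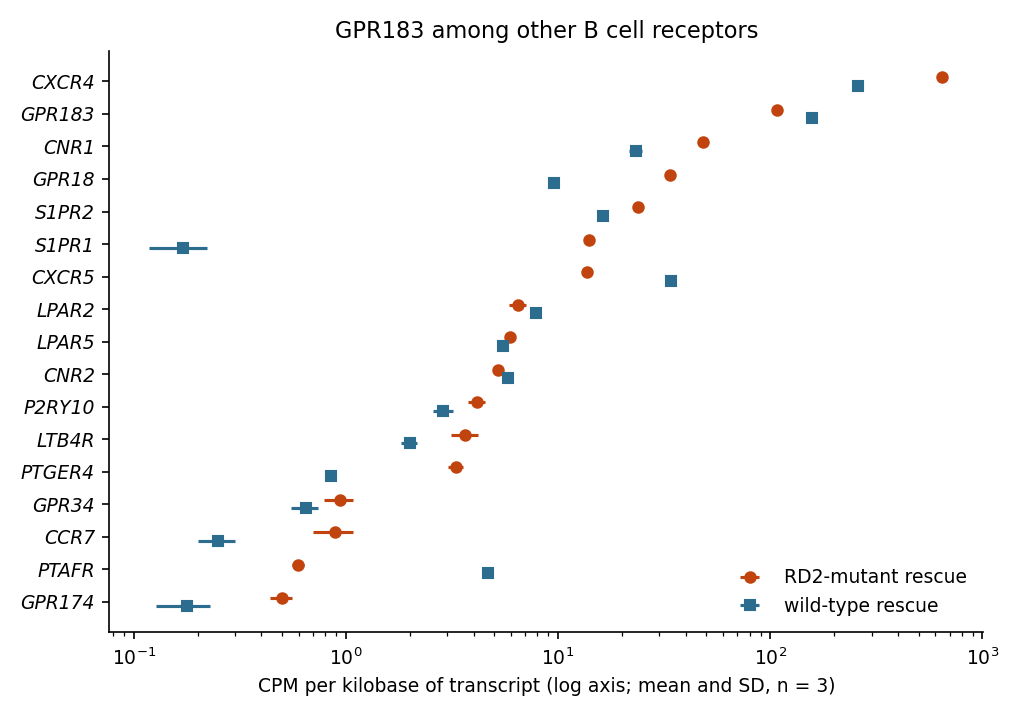
Levels of GPR183 and the other tested receptors, in CPM per kilobase of transcript on a log axis, as mean and SD over 3 libraries (red circles, mutant rescue; blue squares, wild-type rescue). On this scale GPR183 is second after CXCR4 in both rescues, at 108 in the mutant rescue and 157 in the wild-type rescue.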

How the data were processed

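RNA sequencing libraries of 6 OCI-LY1 samples were analysed, 3 per rescue. Trizol extraction of total RNA and TruSeq RNA library preparation are recorded per the labels' protocols. Base calling and alignment tools named per the submitters' processing notes are CASAVA 1.8.2 and STAR, beside edgeR and the build hg19. For the counting step, the annotation, strand setting and treatment of reads with several matches are not given in these sources. The deposited values are raw counts of reads for each gene symbol, with a column per library.

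From these counts, R 4.3.3 and edgeR 4.0.16 gave the results: filterByExpr (12406 of 23250 genes), TMM scaling, robust quasi-likelihood fits of both groups without covariates, and Benjamini-Hochberg adjustment over all tested genes at 0.05. CPM used the library sizes of that fit. The steps were tested on simulated data in which few genes changed. A change in most genes, as called here, was not simulated. Replicate libraries differed by more than counting noise (chi-square per degree of freedom 1.60 to 5.47), so all were kept. Alternatives used DESeq2 1.42.0, limma 3.58.1 and the settings named at the end. Gene order came from RefSeq GRCh38.p14 and lengths from GENCODE v29. Neither is the build of the counts.

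The members and lists were chosen with earlier results of these data known. The text names the 5 members, up to 4 genes per list with the smallest p, neighbours, and the genes closest in pattern to a member. Genes outside that rule are said to be chosen after their values were seen. Some genes taken by the rule are not reported here.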

Additional observations from a re-analysis of the deposited data

How the results depend on the processing

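GPR183 stayed lower and HSD3B7 higher, past the threshold, under every alternative that gave a value. The log2 fold change of GPR183 was -0.55 to -0.52 over 9 alternatives (largest adjusted p = 1.39e-07) and -0.58 to -0.51 when each library was left out. That of HSD3B7 was 1.76 to 1.8 over 8 alternatives (largest adjusted p = 2.23e-05) and 1.52 to 1.98 when each library was left out. A minimum of 1 CPM in every library left HSD3B7 untested, and CH25H, CYP7B1 and CYP27A1 had a value only without a filter. The number of changed genes was 8099 to 8916 when each library was left out, 7903 with DESeq2 and 4585 against a minimum change of 1.2-fold, which asks for a larger change. Other scalings moved the median log2 fold change of tested genes to at most 0.0361. Same-numbered libraries of the rescues deviated together for numbers 1 and 2 (r = 0.196 and 0.239) but not for 3 (r = -0.0719). Libraries with different numbers gave r = -0.255 to 0.106. The labels do not say that the numbers mark a shared day or culture, so the libraries were not treated as pairs. With the replicate block the values were -0.54 for GPR183, 1.77 for HSD3B7 and 9285 changed genes. Of 43 other genes, 11 lost their call and 2 gained one under at least 1 alternative, and 0 reversed. Of 14 list counts, 7 moved by more than 1.5 times, or to or from 0, under at least 1 alternative. At this depth transcripts under 3 counts per library could not be compared.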
